A study of Homo sapiens with 21 samples.

Results

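The 10 genes described here encode the machinery of NF-kB (nuclear factor kappa B) signaling itself: the subunits NFKB1, NFKB2, REL, RELA and RELB, the IkB proteins NFKBIA and BCL3, the feedback regulator TNFAIP3, and the inhibitors of apoptosis BIRC2 and BIRC3. They were taken by name, 10 of the 58174 gene identifiers in the count tables, and each was found once. The rule used no measured value, but the list was chosen with earlier results of these data known. RNA was sequenced from 21 libraries of OCI-AML5, an established human acute myeloid leukemia cell line, in 7 groups of 3. Cells without an EPCR guide were exposed to DMSO, the solvent, for 72 h, or to UM171 for 6, 24, 48 or 72 h, and EPCR null cells expressing a guide RNA against EPCR (sgEPCR), the endothelial protein C receptor encoded by PROCR, were exposed to DMSO or to UM171 for 24 h. UM171 is a small molecule that expands human blood stem cells in culture. The labels give 500 nM for every UM171 group, whereas the published description gives a lower dose. The labels call the sgEPCR cells a clone, and EPCR null in one field and an EPCR knockdown in another. The published description speaks of several independent clones and lists several guides, so the 3 sgEPCR libraries of a group may be separate clones, and the labels do not say which library came from which. It also names a control guide, sgAAVS1, for the cells set against sgEPCR cells at 24 h. The source labels of the other groups name no guide. The series description says that RNA came from sorted subsets.

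The same DMSO libraries were the reference at all 4 times, so the 4 time comparisons are not independent of each other, and at 6, 24 and 48 h the length of culture and the drug cannot be told apart. Likewise, sgEPCR DMSO (24 h) was set against DMSO (72 h), so genotype, origin of the clone or clones and culture time cannot be told apart there. Nothing in the labels says that the 3 libraries of a group came from separate cultures, and p-values then measure only the spread between these libraries, which may be technical. In bulk RNA, fewer cells with a transcript and less transcript per cell cannot be told apart.

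NF-kB factors are dimers built from 5 subunits that share a Rel homology domain. NFKB1 and NFKB2 are made as the precursors p105 and p100, which are cut to p50 and p52, while RELA, RELB and REL carry the transactivation domain. In the canonical pathway, the IKK kinase complex marks NFKBIA (IkB alpha) for destruction and frees dimers such as p50 with RELA. In the non-canonical pathway, the kinase NIK (MAP3K14), held low in resting cells by TRAF2, TRAF3 and BIRC2 or BIRC3, leads to processing of p100 and to p52 with RELB. NFKBIA, TNFAIP3 (A20), BIRC3, NFKB2 and RELB are themselves well known NF-kB target genes, which makes their transcripts a common readout of the pathway, and transcripts say nothing directly of processing, location or binding of the proteins.

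In the GENCODE v44 annotation of GRCh38, the build the counts were made on, each is a protein-coding gene. The 5 subunit genes are NFKB1 (ENSG00000109320, chr4:102501330-102617302, + strand), NFKB2 (ENSG00000077150, chr10:102394110-102402524, + strand), REL (ENSG00000162924, chr2:60881491-60931612, + strand), RELA (ENSG00000173039, chr11:65653599-65663090, - strand) and RELB (ENSG00000104856, chr19:45001461-45038192, + strand). The IkB genes are NFKBIA (ENSG00000100906, chr14:35401079-35404749, - strand) and BCL3 (ENSG00000069399, chr19:44747705-44760044, + strand), and the feedback and apoptosis inhibitor genes are TNFAIP3 (ENSG00000118503, chr6:137867214-137883314, + strand), BIRC2 (ENSG00000110330, chr11:102347211-102378670, + strand) and BIRC3 (ENSG00000023445, chr11:102317484-102339403, + strand).

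Libraries held 2.43e+07 to 5.15e+07 counts, with a median of 3.39e+07. The sgEPCR DMSO replicate 1 and sgEPCR UM171 replicate 2 libraries stood apart, with 35.9% and 32.2% of their counts on mitochondrial genes against 7.73 to 13.5% in the other 19, and the comparisons of sgEPCR cells are given with and without both. Leaving out both takes a library, and perhaps a clone, from each sgEPCR group. Among the other 19, UM171 48 h replicate 3 had the highest mitochondrial share, 13.5%, and stood furthest from its group. Its chi-square per degree of freedom against the rest of its group, a measure of spread over sampling noise, was 55.8 and 60.1. For the other pairs within groups without an EPCR guide it was 1.77 to 10.9. PROCR, the gene the guide was made against, was at 3.37, 4.30 and 3.38 TPM in DMSO, 48.5, 48.5 and 48.5 TPM after 24 h of UM171, 2.30, 4.53 and 3.93 TPM in sgEPCR DMSO and 8.94, 4.23 and 8.41 TPM in sgEPCR UM171, and an edited gene can still be transcribed. Of 7 myeloid markers, all were detected, and their summed level was 1520 to 1611 TPM in DMSO and 2239 to 2437 TPM after 72 h. The sum does not describe each marker. After 72 h, 2 of the 7 were higher and 4 lower by edgeR's test at an adjusted p under 0.05. Of all tested genes, 38.8% were higher and 36.8% lower. The 4 erythroid markers were below 3 counts in every library. The 5 monocyte markers summed to 39.9 to 45.8 TPM in DMSO, 137 to 150 TPM after 72 h, 25.7 to 48.1 TPM in sgEPCR DMSO and 99.8 to 175 TPM in sgEPCR UM171, with CD14 and FCGR3A among those too low to be tested. The 4 T cell markers summed to at most 0.80 TPM in DMSO, 14.7 to 18.6 TPM after 72 h and 6.53 to 17.3 TPM in sgEPCR UM171, of which CD3D alone was high enough to be tested. The 4 B cell markers summed to 9.48 to 10.4 TPM in DMSO, 20.9 to 24.1 TPM after 72 h and 5.88 to 13.8 TPM in sgEPCR UM171, with MS4A1 among those too low to be tested. Their part in the results below was not tested.

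The promoters are shown because several of these genes are known targets of the factor they encode, and because several were higher together at late times. RefSeq start sites on GRCh38.p14 gave 14 windows, from 250 bases before to 50 after a start, for 9 of the 10 genes, with RELB not among them. The short motif GGGNNNTTCC, searched on both strands, was in 7 of the 14 windows, and the 10-base kappaB consensus, which overlaps it, was in 8. The share of all 35116 windows with these motifs was 6.518% and 5.909%. A match to either was present in NFKB1, NFKB2, REL, NFKBIA, BCL3, TNFAIP3 and BIRC3 and in no window of RELA or BIRC2. Positions count back from the start site, which follows base -1. A match is a description of letters and not of binding. Below, capitals mark matches, written as they read on the gene's strand, and the TNFAIP3 stretch stops where an annotated exon begins.
NFKB2, chr10:102395455-102395704, + strand: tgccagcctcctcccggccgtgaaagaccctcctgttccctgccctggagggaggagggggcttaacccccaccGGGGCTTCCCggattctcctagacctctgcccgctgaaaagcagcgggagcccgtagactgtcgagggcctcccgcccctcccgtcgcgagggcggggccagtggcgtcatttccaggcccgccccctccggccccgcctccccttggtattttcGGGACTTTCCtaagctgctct
NFKBIA, chr14:35404750-35404999, - strand: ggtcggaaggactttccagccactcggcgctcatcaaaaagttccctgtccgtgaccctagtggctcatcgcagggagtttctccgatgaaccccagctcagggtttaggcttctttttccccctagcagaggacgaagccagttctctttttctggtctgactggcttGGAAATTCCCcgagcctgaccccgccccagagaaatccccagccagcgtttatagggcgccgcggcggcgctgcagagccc
TNFAIP3, chr6:137867009-137867213, + strand: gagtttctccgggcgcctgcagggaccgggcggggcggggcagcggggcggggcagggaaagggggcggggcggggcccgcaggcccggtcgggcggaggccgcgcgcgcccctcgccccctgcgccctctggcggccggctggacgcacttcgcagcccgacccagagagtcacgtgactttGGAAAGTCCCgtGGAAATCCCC
BIRC3, chr11:102317234-102317483, + strand: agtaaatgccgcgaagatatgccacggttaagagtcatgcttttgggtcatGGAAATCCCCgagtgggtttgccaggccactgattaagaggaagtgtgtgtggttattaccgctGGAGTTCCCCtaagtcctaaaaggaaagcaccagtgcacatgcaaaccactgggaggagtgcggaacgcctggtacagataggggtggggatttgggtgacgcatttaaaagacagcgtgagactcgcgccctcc
BIRC2, chr11:102346964-102347213, + strand: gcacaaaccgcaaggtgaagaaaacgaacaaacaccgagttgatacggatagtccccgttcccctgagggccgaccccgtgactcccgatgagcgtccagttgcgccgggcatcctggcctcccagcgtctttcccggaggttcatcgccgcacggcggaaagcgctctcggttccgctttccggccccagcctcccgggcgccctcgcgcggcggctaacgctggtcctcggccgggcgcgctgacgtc
In NFKB2, the match at -21 to -12 reads GGGACTTTCC, and one further up, at -176 to -167, reads GGGGCTTCCC. NFKBIA carries GGGAATTTCC on the opposite strand at -81 to -72, the same word that stands in the NFKB1 promoter at -49 to -40 on the gene's own strand. TNFAIP3 has a pair on the opposite strand, GGGACTTTCC at -67 to -58 and GGGGATTTCC at -55 to -46, and BIRC3 has GGGGATTTCC at -199 to -190 and GGGGAACTCC at -135 to -126, also on the opposite strand. BIRC2, the neighbouring paralog that lies 7807 bases beyond the end of BIRC3, has no match in either of its windows.

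**Figure D1:**
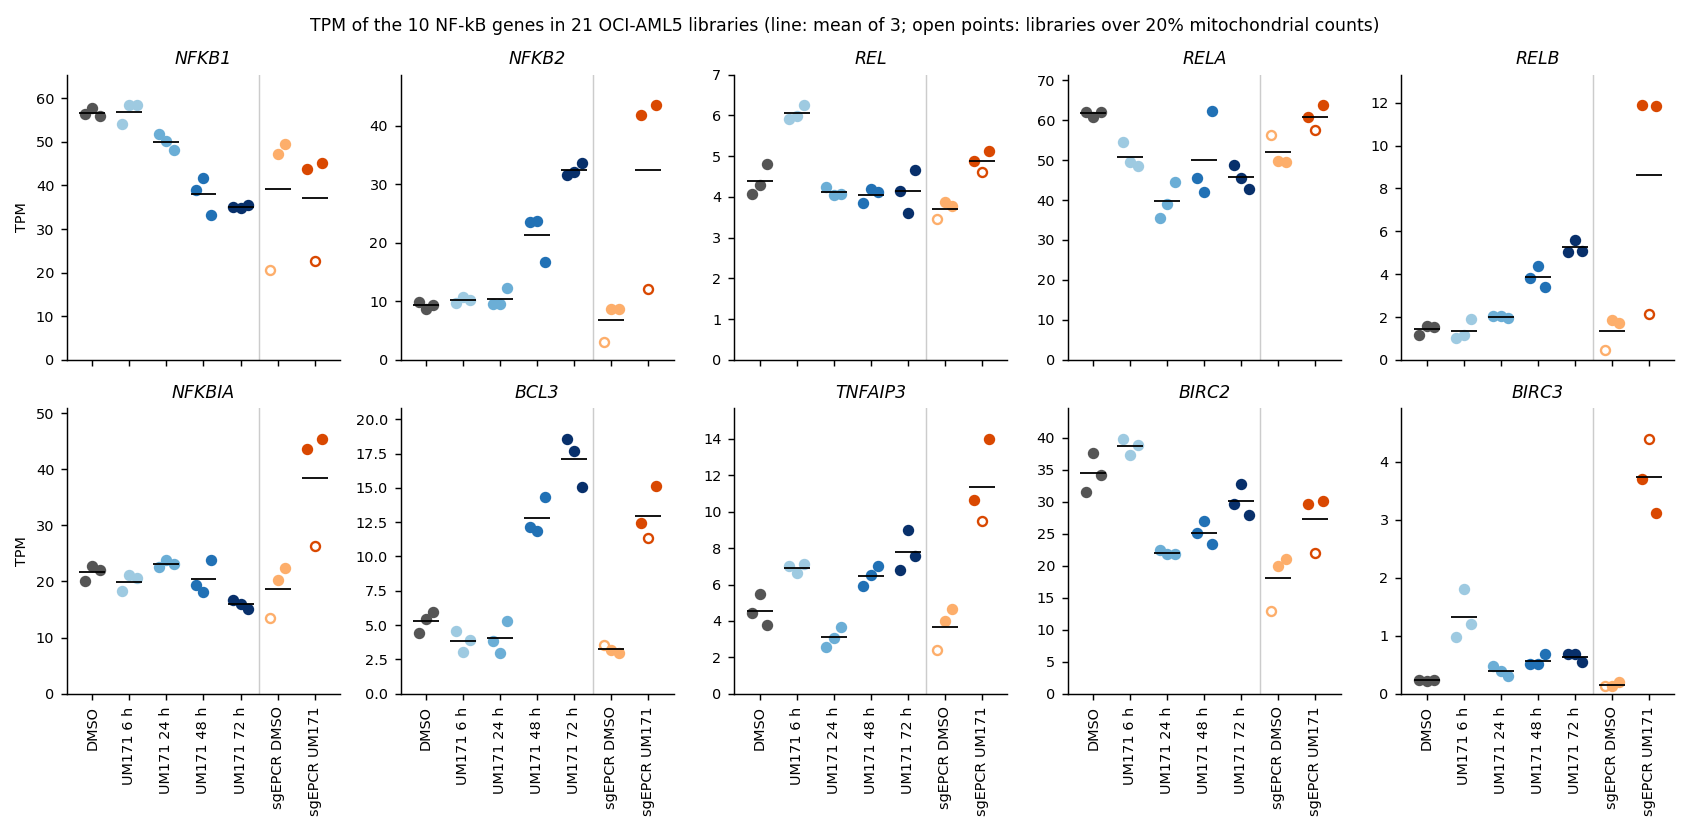
TPM (linear axes from 0) of the 10 genes in each of 21 libraries, 3 a group, with the group mean as a line. NFKB2, RELB and BCL3 after 72 h lie above all DMSO libraries, NFKB1 lies below them, and open points mark the 2 sgEPCR libraries with over 20% mitochondrial counts, which lie apart from their group in NFKB1, NFKB2, RELB and NFKBIA.

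With DMSO, RELA and NFKB1 were the most abundant of these genes per length in TPM, a level scaled to the same total in every library, at 61.7 ± 0.693 and 56.6 ± 0.913 TPM (SD, n = 3), and their ranges did not overlap. BIRC2 followed at 34.4 ± 3.10 TPM, NFKBIA at 21.7 ± 1.36 and NFKB2 at 9.35 ± 0.586. BCL3 (5.27 ± 0.797), TNFAIP3 (4.56 ± 0.859) and REL (4.38 ± 0.376) did not separate, and RELB at 1.44 ± 0.232 and BIRC3 at 0.230 ± 0.010 TPM were lowest. All 10 passed the filter on low counts in both fits. Adjusted p-values below are from edgeR's quasi-likelihood test over 16575 genes in the time course and 15901 in the sgEPCR fit, log2 fold changes are on the scale of normalised counts, "past the limits" means an adjusted p under 0.0001 with a change over 2-fold, and rose or fell is used at an adjusted p under 0.05.

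The 2 subunits of the non-canonical dimer, NFKB2 and RELB, were both past the limits higher after 48 and 72 h. From 6 to 24 h RELB rose by 0.87 (SE 0.14, adjusted p = 4.63e-05), while NFKB2 did not pass the test (0.12, SE 0.06, adjusted p = 0.110). NFKB2 was at 9.92, 8.75 and 9.39 TPM in DMSO, 9.65, 10.7 and 10.2 after 6 h, 9.55, 9.51 and 12.3 after 24 h, 23.6, 23.8 and 16.7 after 48 h, and 31.6, 32.2 and 33.6 after 72 h. All libraries of 48 and 72 h lay above all of DMSO, and those of 72 h above those of 48 h. The log2 fold change of NFKB2 was 0.09 (SE 0.07, adjusted p = 0.236) after 6 h, 0.21 (SE 0.07, adjusted p = 0.00769) after 24 h, 1.41 (SE 0.06, adjusted p = 2.00e-12) after 48 h and 1.87 (SE 0.06, adjusted p = 3.51e-14), or 3.65-fold, after 72 h.

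RELB, which pairs with p52 or p50, was at 1.17, 1.59 and 1.55 TPM in DMSO, 1.01, 1.17 and 1.90 after 6 h, 2.03, 2.06 and 1.94 after 24 h, 3.83, 4.4 and 3.41 after 48 h, and 5.04, 5.61 and 5.10 after 72 h. From 24 h on no library of RELB fell within the DMSO range, while the TPM values after 6 h overlapped it. Its log2 fold change was -0.41 (SE 0.15, adjusted p = 0.0285) after 6 h, a call that was lost without any 1 of 4 libraries (DMSO replicates 2 and 3, UM171 6 h replicates 1 and 2, adjusted p = 0.0565 to 0.104). It was 0.47 (SE 0.14) after 24 h, 1.54 (SE 0.13) after 48 h and 1.93 (SE 0.13, adjusted p = 3.07e-10), or 3.81-fold, after 72 h.

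NFKB1 and RELA, the pair of the canonical dimer, fell. NFKB1 went from 56.3, 57.7 and 55.9 TPM in DMSO to 51.7, 50.2 and 48.2 after 24 h, 39.0, 41.7 and 33.3 after 48 h and 35.0, 34.8 and 35.6 after 72 h, so that each of these 3 times lay wholly below DMSO. Its log2 fold change was -0.23 (SE 0.04, adjusted p = 4.71e-05) after 24 h, -0.54 (SE 0.04) after 48 h and -0.75 (SE 0.04, adjusted p = 1.19e-11) after 72 h. After 6 h it stood at 54.0, 58.4 and 58.3 TPM, and its log2 fold change of -0.16 (SE 0.04, adjusted p = 0.00172) turned to 0.03 when libraries were scaled to their total counts, a scaling that moved the median of all tested genes after 6 h from 0.02 to 0.20.

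RELA fell at every time. It was at 62.1, 60.9 and 62.1 TPM in DMSO, 54.4, 49.5 and 48.6 after 6 h, 35.6, 39.1 and 44.5 after 24 h, 45.6, 42.0 and 62.3 after 48 h, and 48.7, 45.5 and 42.8 after 72 h. All values of UM171 were below DMSO except that of UM171 48 h replicate 3, whose normalised count was nevertheless below DMSO. The log2 fold change of RELA was -0.43 (SE 0.07) after 6 h, where limma on log2(TPM + 1) gave -0.28 (adjusted p = 0.0809), -0.64 (SE 0.07, adjusted p = 5.00e-07) after 24 h, -0.40 (SE 0.07) after 48 h and -0.54 (SE 0.07, adjusted p = 3.16e-06) after 72 h.

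REL, the lymphoid and myeloid subunit c-Rel, rose after 6 h and did not pass the test at the later times. It was at 4.07, 4.28 and 4.8 TPM in DMSO and 5.91, 5.99 and 6.25 TPM after 6 h, with no overlap, and at 3.60 to 4.66 TPM at 24, 48 and 72 h. Its log2 fold change was 0.37 (SE 0.11, adjusted p = 0.00806) after 6 h and -0.11 (SE 0.11, adjusted p = 0.409) after 24 h, and from 6 to 24 h it fell by 0.48 (SE 0.11, adjusted p = 0.00108). Of the 17129 annotated exon bases of REL, 5702 are shared with a long non-coding RNA on the same strand, so reads of the 2 genes can be split between them.

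**Figure D2:**
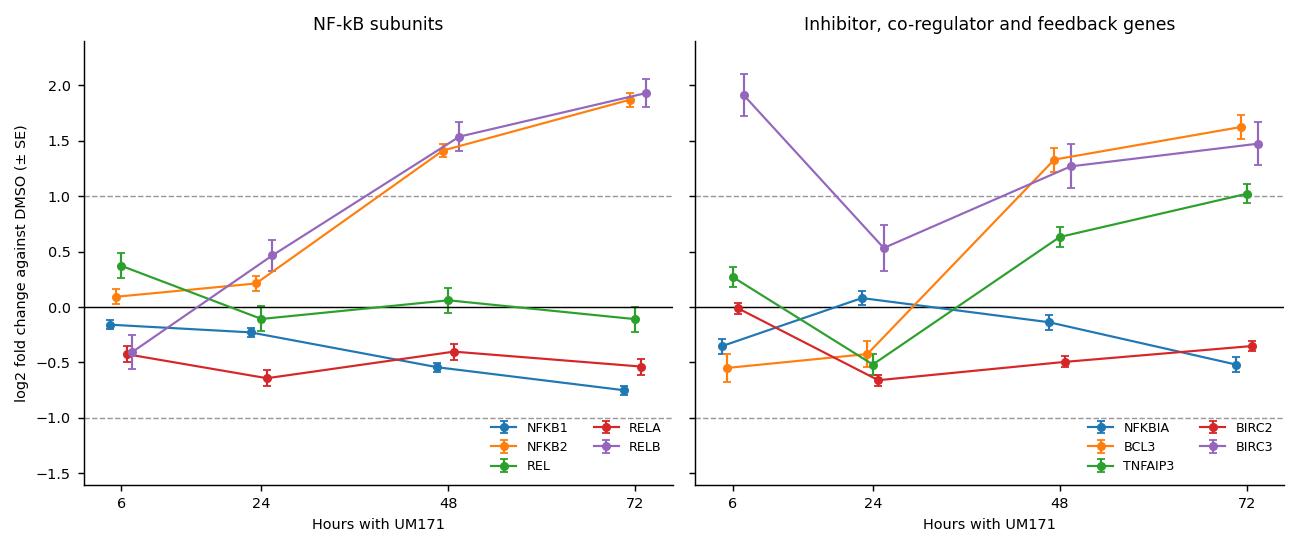
Log2 fold change against DMSO (points, with bars for the SE, from the fit of 15 libraries) over hours with UM171 for the 5 subunits (left) and the other 5 genes (right), where dashed lines mark a 2-fold change. NFKB2 and RELB climb to 1.87 and 1.93 after 72 h while NFKB1 declines to -0.75, and BIRC3 has 1.91 after 6 h, 0.53 after 24 h and 1.47 after 72 h.

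The makeup of the subunit transcripts shifted over the time course. NFKB2 made up 7.01 ± 0.429% of the summed TPM of the 5 subunits in DMSO, 8.13 ± 0.399% after 6 h, 9.80 ± 1.11% after 24 h, 18.3 ± 3.74% after 48 h and 26.5 ± 1.11% after 72 h (mean ± SD, n = 3). Over the same times NFKB1 went from 42.4 ± 0.778% to 28.6 ± 0.551%, RELA from 46.2 ± 0.424% to 37.2 ± 1.98% and RELB from 1.08 ± 0.174% to 4.28 ± 0.292%. In sgEPCR cells NFKB2 held 6.32 ± 2.4% with DMSO and 21.2 ± 7.80% with UM171, where the lowest share in each group, 3.55% and 12.2%, was that of the library with many mitochondrial counts. REL held 3.28 ± 0.277% in DMSO and 3.37 ± 0.436% after 72 h. The sum was 133 ± 0.296 TPM in DMSO, 106 ± 4.13 after 24 h and 122.6 ± 1.57 after 72 h. Shares of NFKB2 in the 3 libraries of 72 h (25.4 to 27.6%) lay above those of DMSO (6.57 to 7.43%).

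**Figure D3:**
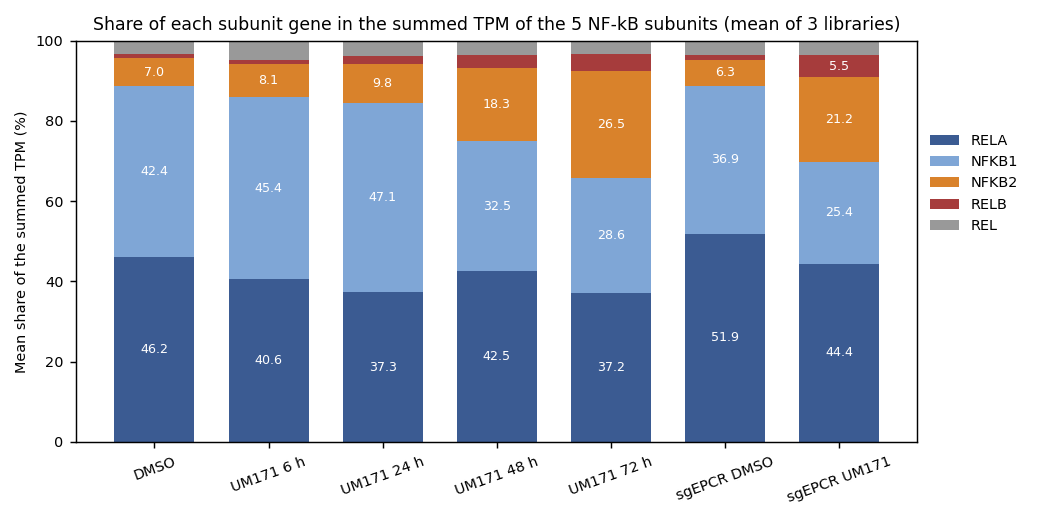
Mean share (%) of each subunit gene in the summed TPM of the 5 subunits in each group (3 libraries each, shares above 5% printed in the bars). NFKB2 grows from 7.01% in DMSO to 26.5% after 72 h as NFKB1 shrinks from 42.4% to 28.6%.

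Of the 2 IkB family genes, NFKBIA fell late and BCL3 rose late. NFKBIA, the inhibitor that holds dimers in the cytoplasm, was at 20.1, 22.8 and 22.1 TPM in DMSO, 18.2, 21.1 and 20.5 after 6 h, 22.6, 23.8 and 23.1 after 24 h, 19.3, 18.1 and 23.8 after 48 h and 16.7, 16.0 and 15.1 after 72 h. Only after 72 h did its TPM lie wholly below DMSO. Its log2 fold change was -0.35 (SE 0.07, adjusted p = 2.59e-04) after 6 h, 0.08 (SE 0.07, adjusted p = 0.290) after 24 h, -0.14 (SE 0.07, adjusted p = 0.0792) after 48 h and -0.52 (SE 0.07, adjusted p = 2.56e-06) after 72 h. The fall after 6 h was -0.11 (adjusted p = 0.332) by limma on log2(TPM + 1).

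BCL3, a nuclear IkB protein that binds p50 or p52 dimers and can activate transcription with them, was at 4.41, 5.43 and 5.98 TPM in DMSO, 4.56, 3.07 and 3.95 after 6 h, 3.86, 2.99 and 5.31 after 24 h, 12.2, 11.8 and 14.4 after 48 h and 18.6, 17.7 and 15.1 after 72 h. The late libraries all lay above DMSO, and the early ones overlapped it in TPM. BCL3 fell by 0.55 (SE 0.12, adjusted p = 0.00102) after 6 h and by 0.42 (SE 0.12, adjusted p = 0.00495) after 24 h, then rose to a log2 fold change of 1.33 (SE 0.11, adjusted p = 7.00e-09) after 48 h and 1.62 (SE 0.11, adjusted p = 3.02e-10) after 72 h. Its step from 24 to 48 h, 1.75 (SE 0.11, adjusted p = 2.69e-09) or 3.37-fold, exceeded those of NFKB2 (1.2, SE 0.06) and RELB (1.07, SE 0.12), though the difference between genes was not tested. By limma on log2(TPM + 1) the early falls were -0.37 (adjusted p = 0.0750) after 6 h and -0.33 (adjusted p = 0.0962) after 24 h.

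TNFAIP3, the ubiquitin-editing enzyme A20 that shuts off signaling to IKK, moved up, down and up again. It was at 4.42, 5.48 and 3.78 TPM in DMSO, 7.0, 6.61 and 7.11 after 6 h, 2.58, 3.06 and 3.67 after 24 h, 5.93, 6.50 and 7.0 after 48 h and 6.79, 8.99 and 7.59 after 72 h. No UM171 group overlapped DMSO. The rise after 6 h was 0.27 (SE 0.09, adjusted p = 0.0142) on counts, a call lost without DMSO replicate 1 or UM171 6 h replicate 1 or 2 (adjusted p = 0.0633 to 0.0869), whereas the mean TPM was 1.51-fold higher. TPM also divides by the effective length that the authors' software assigned, which for TNFAIP3 ran from 1886 to 3252 bases over the 19 libraries with fewer mitochondrial counts. TNFAIP3 fell by 0.52 (SE 0.09, adjusted p = 9.81e-05) after 24 h and rose by 0.63 (SE 0.09) after 48 h and 1.02 (SE 0.09, adjusted p = 7.15e-09) after 72 h. The 72 h value sits at the 2-fold limit and was 0.97 without DMSO replicate 1 or UM171 72 h replicate 3, just under 1.00 without UM171 48 h replicate 1, and 0.66 by limma on log2(TPM + 1).

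The adjacent paralogs BIRC2 and BIRC3 (cIAP1 and cIAP2), ubiquitin ligases of the TNF receptor and NIK complexes, took different courses. BIRC3 was the lowest of the 10 in DMSO, at 0.24, 0.22 and 0.23 TPM (21 to 28 counts), and was at 0.97, 1.81 and 1.2 TPM after 6 h, 0.47, 0.39 and 0.31 after 24 h, 0.51, 0.51 and 0.68 after 48 h and 0.68, 0.69 and 0.55 after 72 h. Every UM171 library lay above every DMSO library, with the 6 h libraries highest. BIRC3 rose by 1.91 (SE 0.19, adjusted p = 1.97e-07), or 3.76-fold, after 6 h, fell by 1.38 (SE 0.18, adjusted p = 2.73e-06) from 6 to 24 h, and was 1.27 (SE 0.20, adjusted p = 1.98e-05) after 48 h and 1.47 (SE 0.19, adjusted p = 2.37e-06) after 72 h. Its 0.53 (SE 0.21, adjusted p = 0.0310) after 24 h was lost without DMSO replicate 2 or 3 or UM171 24 h replicate 1 or 3 (adjusted p = 0.0538 to 0.152), and the 48 h value missed the limits without DMSO replicate 2 or 3 or UM171 48 h replicate 1 (adjusted p = 1.14e-04 to 2.39e-04).

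BIRC2, at 31.5, 37.7 and 34.2 TPM in DMSO, was at 39.8, 37.3 and 38.9 after 6 h, 22.5, 21.8 and 21.8 after 24 h, 25.2, 26.9 and 23.5 after 48 h and 29.7, 32.7 and 28 after 72 h. It was lowest after 24 h, without overlap with DMSO. BIRC2 fell by 0.66 (SE 0.05, adjusted p = 2.40e-09) after 24 h and by 0.35 (SE 0.05, adjusted p = 4.09e-06) after 72 h, and after 6 h its value of -0.01 (SE 0.05, adjusted p = 0.845) changed sign with the scaling. Reads that fit both paralogs are split by the authors' software, and the share of such reads was not measured.

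Counted over all 10 genes, 1 was past the limits in the higher direction after 6 h (BIRC3), against 6.78% of all tested genes, and after 24 h none was, against 9.03%. After 24 h, 8 genes had an unadjusted p under 0.05, and DESeq2 and limma also put 0 past the limits. The share of all tested genes at an unadjusted p under 0.05 was not counted, here or below. It is no smaller than their share at an adjusted p under 0.05. After 48 h 4 were past the limits (NFKB2, RELB, BCL3 and BIRC3) against 11.7%, and after 72 h 5 (the same 4 and TNFAIP3) against 15%. DESeq2 put 1, 4 and 5 past the limits after 6, 48 and 72 h, and limma on log2(TPM + 1) 0, 3 and 3. None of the 10 was past the limits in the lower direction, where 0.247%, 4.70%, 4.67% and 5.80% of all tested genes were at the 4 times. At an adjusted p under 0.05 the counts were 3 rising and 5 falling after 6 h (31.8% and 30.3% of all tested genes), 3 and 5 after 24 h (34.9% and 34.8%), 5 and 3 after 48 h (37.1% and 35.0%) and 5 and 4 after 72 h (38.8% and 36.8%). The median log2 fold change of the 10 after 72 h was 0.46, against 0.02 over all tested genes.

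Taken stepwise, from 6 to 24 h none of the 10 was past the limits higher (3.61% of all tested genes) and BIRC3 was past them lower (6.43%). DESeq2 put 1 past them in that step and limma 0. TNFAIP3 (-0.79, SE 0.09) and BIRC2 (-0.65, SE 0.05) also fell in that step, and RELB (0.87, SE 0.14) and NFKBIA (0.43, SE 0.07) rose, of 2 that rose and 5 that fell at an adjusted p under 0.05 (32.5% and 34.6% of all tested genes). From 24 to 48 h, 4 were past the limits higher (NFKB2, RELB, BCL3 and TNFAIP3 at 1.15, SE 0.09) and 0 lower, against 2.51% and 0.338%. DESeq2 put 4 past the limits in this step and limma 1. At an adjusted p under 0.05, 7 rose and 2 fell in this step (23.6% and 22.0%). Without UM171 48 h replicate 2, RELB was at 0.95 and missed the 2-fold limit. From 48 to 72 h none was past them (2.59% higher, 0.760% lower), by DESeq2 and limma as well, while 7 had an unadjusted p under 0.05. NFKB2 rose by 0.46 (SE 0.06, adjusted p = 2.87e-06) in this last step, TNFAIP3 by 0.39 (SE 0.08) and RELB by 0.39 (SE 0.11), and NFKBIA fell by 0.38 (SE 0.07), of 5 that rose and 2 that fell (28% and 29.2%).

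In sgEPCR cells, 24 h of UM171 was followed by higher levels of most of these genes. BIRC3 was at 0.13, 0.14 and 0.20 TPM in sgEPCR DMSO (8 to 20 counts) and at 3.70, 4.39 and 3.11 TPM in sgEPCR UM171, where UM171 24 h without the guide had 0.31 to 0.47 TPM. It rose 21.9-fold, a log2 fold change of 4.46 (SE 0.33, adjusted p = 1.42e-06). TNFAIP3 went from 2.39, 3.98 and 4.63 to 10.6, 9.49 and 14.0 TPM and rose by 1.75 (SE 0.12, adjusted p = 6.00e-07). Without the 2 libraries with many mitochondrial counts BIRC3 was at 4.5 and TNFAIP3 at 1.69. In both genes the UM171 and DMSO libraries did not overlap, also in the 2 libraries with many mitochondrial counts.

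NFKB2 was at 2.98, 8.67 and 8.66 TPM in sgEPCR DMSO and 41.8, 12.1 and 43.6 TPM in sgEPCR UM171, and RELB at 0.46, 1.87 and 1.70 and then 11.9, 2.12 and 11.9 TPM. The lowest value in each group belongs to the library with many mitochondrial counts, and the UM171 values still lay above all DMSO values. NFKB2 rose by 2.04 (SE 0.22, adjusted p = 1.77e-05) and RELB by 2.35 (SE 0.38, adjusted p = 3.72e-04). Without the 2 libraries these were 2.14 (adjusted p = 5.59e-12) and 2.49 (adjusted p = 1.54e-10). These smaller p-values come from fewer libraries, which differ less from each other. The 2 sgEPCR UM171 libraries with fewer mitochondrial counts were above the highest TPM of any other group, also of 72 h, for NFKB2, RELB, NFKBIA, TNFAIP3 and BIRC3. For NFKBIA, TNFAIP3 and BIRC3 the remaining sgEPCR UM171 library was as well.

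BCL3 went from 3.57, 3.22 and 2.99 to 12.4, 11.4 and 15.1 TPM and rose by 1.63 (SE 0.16, adjusted p = 1.11e-05). NFKBIA, which had not risen by UM171 at any time in control cells, went from 13.4, 20.3 and 22.4 to 43.6, 26.4 and 45.4 TPM and rose by 0.86 (SE 0.07, adjusted p = 3.12e-06). BIRC2 went from 13, 19.9 and 21.1 to 29.6, 22.0 and 30.2 TPM and rose by 0.58 (SE 0.09, adjusted p = 3.11e-04). Without the 2 libraries with many mitochondrial counts BCL3 was at 1.87, NFKBIA at 0.85 and BIRC2 at 0.48, each at an adjusted p under 0.05. These 3 are the nuclear and cytoplasmic IkB proteins and the more abundant of the paralogs, and none of them overlapped between treatments.

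NFKB1 did not join them. It was at 20.7, 47.3 and 49.5 TPM in sgEPCR DMSO and 43.7, 22.6 and 45.1 TPM in sgEPCR UM171, and its log2 fold change was -0.31 (SE 0.06, adjusted p = 0.00148), and -0.31 without the 2 libraries with many mitochondrial counts. RELA, at 56.3, 49.8 and 49.6 and then 60.7, 57.5 and 63.8 TPM, had 0.04 (SE 0.10, adjusted p = 0.779), and REL, at 3.45, 3.87 and 3.77 and then 4.88, 4.61 and 5.13 TPM, had 0.07 (SE 0.45, adjusted p = 0.909). For RELA and REL the TPM of the groups did not overlap although the counts did. The effective length in the 2 libraries with many mitochondrial counts was 0.534 times that in the other 19 for RELA and 1.51 times for REL. These ratios set the mean of the 2 against the median of the 19, and TPM divides by this length. Without those libraries RELA rose by 0.16 (adjusted p = 0.0123) and REL by 0.24 (adjusted p = 0.0214).

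Of the 10 genes, 4 were past the limits higher in sgEPCR UM171 against sgEPCR DMSO (NFKB2, BCL3, TNFAIP3 and BIRC3) and 0 lower, against 6.99% and 3.33% of all tested genes. The count was 2 without sgEPCR DMSO replicate 2 or 3 and 5 without the 2 libraries with many mitochondrial counts, RELB being the added gene, against 9.98% higher. With all 12 libraries, DESeq2 put 5 past the limits and limma on log2(TPM + 1) 1. At an adjusted p under 0.05, 7 rose and 1 fell, against 27.0% and 25.1%. In DMSO alone, sgEPCR cells differed in 1 of the 10, with BIRC2 lower by 0.72 (SE 0.09, adjusted p = 1.72e-04), where 17.4% of all tested genes were higher and 16.3% lower at that threshold. None was past the limits (1.43% and 1.41% of all tested genes), by edgeR, DESeq2 or limma, and 3 had an unadjusted p under 0.05. Without the libraries with many mitochondrial counts this became 1 higher (RELB, 0.53) and 5 lower, in a fit where 30.3% of all tested genes were higher and 30.01% lower, and leaving out sgEPCR DMSO replicate 1 alone gave 3 genes and sgEPCR UM171 replicate 2 alone 2.

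**Figure D4:**
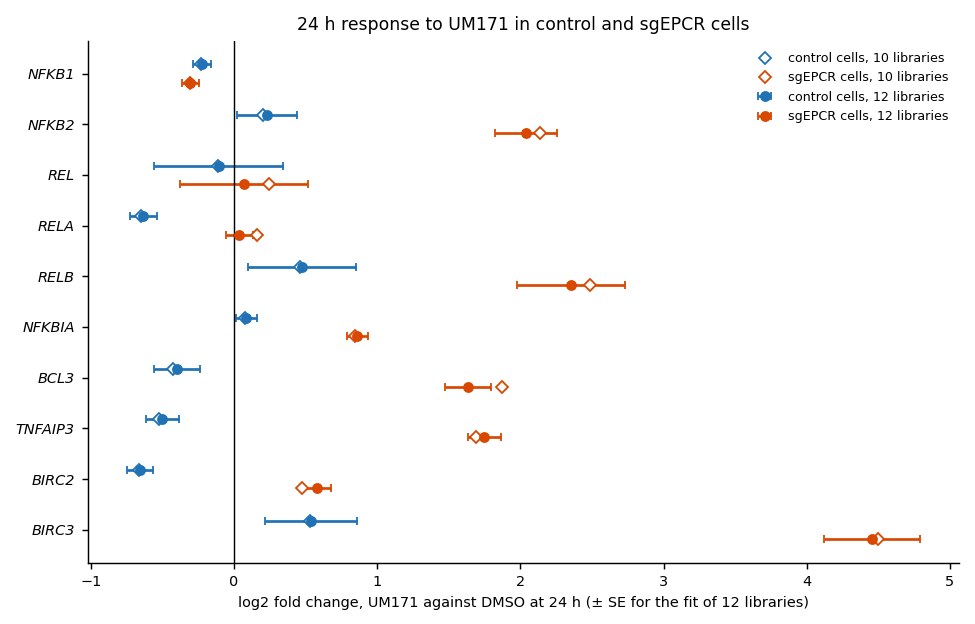
Log2 fold change of UM171 for 24 h against DMSO in control cells (blue, DMSO for 72 h) and sgEPCR cells (orange, DMSO for 24 h). Points with SE are from the fit of 12 libraries, and open diamonds are without the 2 libraries with over 20% mitochondrial counts. Orange lies to the right of blue in every gene but NFKB1, by 3.92 in BIRC3, and the diamonds lie on the same side of 0 as the points.

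The difference between the 24 h responses (sgEPCR cells minus control cells, an interaction term) was above 0 for 8 of the 10 genes at an adjusted p under 0.05 and below 0 for none, against 21.9% and 23.1% of all tested genes. It was 3.92 (SE 0.46, adjusted p = 6.29e-05) for BIRC3, 2.25 (SE 0.16, adjusted p = 2.50e-06) for TNFAIP3, 2.03 (SE 0.23, adjusted p = 4.52e-05) for BCL3 and 1.24 (SE 0.13, adjusted p = 2.79e-05) for BIRC2. These 4 were past the limits, with 0 lower, where 3.60% and 4.17% of all tested genes were. DESeq2 put 5 of the 10 past the limits, but limma on log2(TPM + 1) put 0. For BIRC2 the difference includes a gap between the DMSO groups, with sgEPCR DMSO lower than DMSO by 0.72 (SE 0.09). With UM171 for 24 h, BIRC2 in sgEPCR cells was above control cells by 0.52 (SE 0.09), which is less than 2-fold. RELB (1.88, SE 0.53, adjusted p = 0.0142), NFKB2 (1.81, SE 0.30, adjusted p = 5.89e-04), NFKBIA (0.77, SE 0.10, adjusted p = 1.27e-04) and RELA (0.67, SE 0.14, adjusted p = 0.00223) made up the 8. For NFKB1 it was -0.08 (SE 0.09, adjusted p = 0.465) and for REL 0.18 (SE 0.63, adjusted p = 0.844). The median difference of the 10 was 1.52, against -0.02 over all tested genes. Control cells were set against DMSO for 72 h and sgEPCR cells against DMSO for 24 h. Genotype and time of the DMSO reference therefore cannot be told apart here.

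For BCL3, TNFAIP3 and BIRC2 the 2 responses pointed in opposite directions, with control cells at -0.40 (SE 0.16, adjusted p = 0.0663), -0.50 (SE 0.11, adjusted p = 0.00462) and -0.66 (SE 0.09, adjusted p = 1.79e-04) in the same fit and sgEPCR cells above 0. In that fit of 12 libraries, none of the 10 was past the limits in control cells by edgeR, DESeq2 or limma (5.36% of all tested genes were higher and 1.67% lower), 5 had an unadjusted p under 0.05, and 0 rose and 4 fell at an adjusted p under 0.05 (24.5% and 20.2%). The count of 8 at an adjusted p under 0.05 stood without any 1 of the 12 libraries. The count past the limits was 1 to 5 on leaving out 1 library, with 1 (TNFAIP3) without any 1 of the DMSO or UM171 24 h libraries or without sgEPCR DMSO replicate 2 or 3, and 2 without sgEPCR UM171 replicate 1 or 3. Without the 2 libraries with many mitochondrial counts it was 6 (adding NFKB2 at 1.93 and RELB at 2.02), against 9.28% higher, and 9 genes were above 0 at an adjusted p under 0.05, with REL added at 0.35 (adjusted p = 0.0124), where 33.6% of all tested genes were higher and 35.6% lower. In that fit BIRC3 was at 3.97, TNFAIP3 at 2.22, BCL3 at 2.30, BIRC2 at 1.14, NFKBIA at 0.77, RELA at 0.81 and NFKB1 at -0.08.

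Set directly against control cells with UM171 for 24 h, sgEPCR cells with UM171 held more BIRC3 (3.37, SE 0.30, adjusted p = 1.06e-05), TNFAIP3 (2.03, SE 0.12), NFKB2 (1.8, SE 0.21) and BCL3 (1.67, SE 0.16), the 4 past the limits, against 2.67% of all tested genes higher and 1.79% lower. RELB (2.20, SE 0.37), NFKBIA (0.86, SE 0.07), RELA (0.59, SE 0.10) and BIRC2 (0.52, SE 0.09) were also higher at an adjusted p under 0.05, and NFKB1 was lower, at -0.23 (SE 0.06), which makes 8 higher and 1 lower, against 20.8% and 22.2% of all tested genes. The 4 past the limits became 1 (TNFAIP3) without any 1 of the UM171 24 h libraries, 2 without sgEPCR UM171 replicate 1 or 3, and 5 without the 2 libraries with many mitochondrial counts, where 6.09% of all tested genes were higher and 3.78% lower. Without those 2 libraries BIRC3 was at 3.13, TNFAIP3 at 2.08, NFKB2 at 2.05, BCL3 at 1.77, RELB at 2.55, NFKBIA at 0.84, RELA at 0.60, BIRC2 at 0.41 and NFKB1 at -0.20. In this comparison too the guide and the origin of the clone or clones cannot be told apart.

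The genes around these 10 in the pathway moved unevenly. Among the ligands, 9 listed and 4 high enough to be tested, TNFSF13B (BAFF, a ligand that feeds the non-canonical pathway) went from 9.16 ± 0.535 to 81.1 ± 3.70 TPM between DMSO and 72 h, and IL1B, a canonical activator, from 5.59 ± 0.191 to 35.7 ± 1.73 TPM. Both were past the limits, and TNF, LTA, IL1A, CD40LG and TNFSF11 were too low to be tested. Of 10 tested receptors, 3 were past the limits higher and 1 lower after 72 h, against 15% and 5.80% of all tested genes, with TLR2 at 1.42 (SE 0.11, adjusted p = 2.57e-09) and TNFRSF8 (CD30) at -1.88 (SE 0.12, adjusted p = 2.16e-10).

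Of 16 tested adaptors and ubiquitin ligases, 1 was past the limits higher after 72 h, against 15% of all tested genes. This was TRAF1, the TRAF protein that carries no RING domain, at 1.44 (SE 0.07, adjusted p = 9.06e-12). None of the 11 kinases was past the limits by edgeR after 72 h or in the difference between the 24 h responses, although 9 and 3 of them had an unadjusted p under 0.05, and without the 2 libraries with many mitochondrial counts 1 was past them in that difference, lower, against 9.79% of all tested genes. At an adjusted p under 0.05, 7 of the 11 kinases fell after 72 h and 2 rose, against 36.8% and 38.8% of all tested genes, and their median log2 fold change was -0.31 against 0.02 over all tested genes. Of the 4 other IkB proteins none was past the limits by edgeR after 72 h, with 4 at an unadjusted p under 0.05, and 3 fell and 1 rose at an adjusted p under 0.05. In the difference between the 24 h responses 1 of these 4, NFKBIZ, was past the limits higher, against 3.60% of all tested genes. Of 10 tested feedback regulators beyond TNFAIP3, PELI1, a ubiquitin ligase of Toll-like receptor signaling, was past them after 72 h at 1.01 (SE 0.06, adjusted p = 1.38e-10).

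Many known NF-kB target genes rose. Of the 27 tested, 13 were past the limits higher after 72 h and 0 lower, against 15% and 5.80%, and their median log2 fold change was 0.75. CSF1, the macrophage growth factor, rose by 5.67 (SE 0.16, adjusted p = 5.29e-15) and PTGS2 (COX-2) by 4.41 (SE 0.17, adjusted p = 2.17e-13). After 6 h 3 of the 27 were past the limits, against 6.78%, and after 24 h 9, against 9.03%.

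In the difference between the 24 h responses, 11 of 28 tested targets were past the limits higher and 0 lower, against 3.60% and 4.17%, and 14 were without the 2 libraries with many mitochondrial counts, against 9.28% of all tested genes higher. CSF1 (4.70, SE 0.37) and the chemokine CCL3 (3.95, SE 0.46) were the targets with the largest differences by the naming rule, with CCL3 at 230, 79.4 and 232 TPM in sgEPCR UM171 and 0.470 to 2.16 TPM in sgEPCR DMSO, though its reads can be shared with near-identical copies. Among regulators, ZFP36 (2.19, SE 0.13), an mRNA decay factor, the deubiquitinase CYLD (1.3, SE 0.11), the nuclear IkB protein NFKBIZ (1.91, SE 0.18), TRAF1 (2.38, SE 0.28) and the receptor-interacting kinase RIPK1 (1.13, SE 0.10) were past the limits. These differences include gaps between the DMSO groups, as the TPM of each was lower in sgEPCR DMSO than in DMSO without overlap. TRAF1 was at 2.37 to 2.59 TPM in DMSO and 0.33 to 1.02 TPM in sgEPCR DMSO. RIPK1 was at 21.8 to 23.5 TPM in DMSO, 6.22 to 14.0 TPM in sgEPCR DMSO and 12.6 to 20.8 TPM in sgEPCR UM171. After UM171, RIPK1 in sgEPCR cells was therefore not above DMSO. Among ligands, TNFSF14 (LIGHT) was 7.0 higher (SE 0.85) from 8 to 15 counts in sgEPCR DMSO, IL1B was 2.65 higher (SE 0.16) and TNFSF13B had a difference of -3.02 (SE 0.21). TNFSF13B was at 17.6, 12.9 and 18.1 TPM in sgEPCR UM171, against 10.0, 18.5 and 19.0 TPM in sgEPCR DMSO and 65.3 to 69.1 TPM in control cells with UM171 for 24 h. The DMSO groups differed for ligands too. IL1B was at 5.39 to 5.77 TPM in DMSO and 0.97 to 2.07 TPM in sgEPCR DMSO, and TNFSF14 was at 83 to 90 counts in DMSO. TNFSF13B went the other way, at 8.62 to 9.69 TPM in DMSO, and CSF1 and CCL3 overlapped between the DMSO groups. Of the 28 targets, 2 were higher and 10 lower in sgEPCR DMSO than in DMSO at an adjusted p under 0.05. Of all tested genes, 17.4% and 16.3% were.

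**Figure D5:**
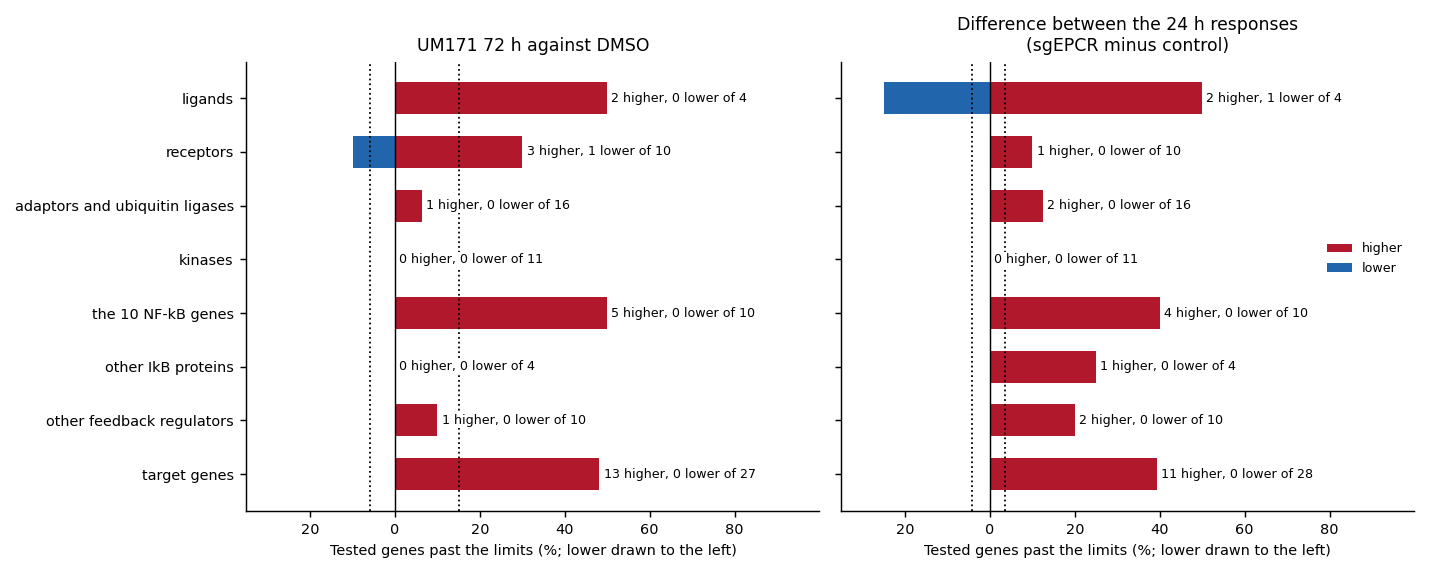
Share (%) of tested genes past the limits in each list of pathway genes, higher to the right and lower to the left, after UM171 72 h against DMSO (left) and for the difference between the 24 h responses of sgEPCR and control cells (right), with dotted lines at the share of all tested genes. Target genes (13 of 27 and 11 of 28) lie beyond the dotted line in the higher direction in both panels. So do the 10 NF-kB genes (5 and 4), ligands (2 of 4 in each) and receptors (3 and 1 of 10). Adaptors and ubiquitin ligases, other IkB proteins and other feedback regulators do so in the right panel only, and kinases (0 of 11) have none.

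The 3 of the 10 genes with the widest range of group means on the log2 CPM scale were BIRC3 (4.30), RELB (2.86) and BCL3 (2.15). Over the 21 libraries and 10926 genes, the profiles most like that of RELB were those of NFKB2 (Pearson r = 0.957), UPP1 (0.955) and ITGA5 (0.954), and without the 2 libraries with many mitochondrial counts ITGA5 (0.975) and UPP1 (0.963) lay above NFKB2 (0.954). BCL3 was closest to KLHL6 (0.970), OTUD1 and TMEM63B (both 0.960), and BIRC3 to MAP1A (0.959), MINDY2 (0.956) and RCAN3 (0.953). These are descriptions over libraries that fall into 7 treatment groups and share their scaling, with no test, and include the 2 libraries with many mitochondrial counts unless stated. Within the 10, NFKB2 had r = 0.923 with BCL3 and -0.863 with NFKB1, and NFKBIA had its highest r, 0.559, with RELA.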

How the data were processed

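Poly(A)-selected, stranded RNA-seq libraries of OCI-AML5 cells were analysed, 21 in 7 groups of 3 taken from the labels. Per the labels' processing notes, which give tools but no order, the submitters used CASAVA 1.8.2, Trimmomatic 0.35, STAR 2.5.1b and RSEM 1.2.28 on GRCh38. The authors deposited, for each library, RSEM expected counts (estimated, not whole, and not normalised), TPM (scaled per effective length and to the same total in every library) and the effective length of 58219 entries, of which the 45 entries of the Y pseudoautosomal region were added to their X copies. RSEM shares reads that fit several genes among them, so values of paralogs and overlapping genes are uncertain.

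Expected counts were rounded and tested with edgeR 4.0.16 in R 4.3.3 (TMM scaling, filterByExpr, quasi-likelihood test, Benjamini-Hochberg adjustment over all tested genes). The 15 libraries without an EPCR guide were fitted together (16575 genes), and the 12 libraries of the genotype comparison (UM171 for 24 h, and DMSO) together (15901 genes). Total counts per library set the precision, and the common biological coefficient of variation was 0.0564 and 0.187. SE values are the log2 fold change over the root of the F statistic. Alternatives used DESeq2 1.42.0, limma 3.58.1 on log2(TPM + 1), other scalings and filters, other limits, a replicate block and leaving out each library. On simulated counts with 200 genes changed by a log2 fold of 2, the test put 195 past the limits with 0 false for 72 h against DMSO (16114 genes) and 90 with 0 false for the difference between the 24 h responses (15625 genes). The simulated counts varied independently from gene to gene. They hold no shift shared by many genes of a library, so the false calls that such a shift could bring were not tested.

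The 10 genes and the pathway and marker lists were chosen with earlier results of these data known, so no list is independent evidence. Of each pathway list, the genes named are up to 2 with the largest rise and 2 with the largest fall past the limits, with an average log2 CPM above 2, at 72 h and in the difference between the 24 h responses. Genes listed as too low to be tested are named besides. Of the 35 target genes, SOD2 was not matched by name. No pair of replicates agreed within sampling noise. Promoters come from RefSeq (GRCh38.p14) and positions from GENCODE. Figures were drawn with matplotlib 3.10.9.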

Additional observations from a re-analysis of the deposited data

Results flagged for a closer look

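For 18 genes the 24 h response to UM171 differed between sgEPCR and control cells by the interaction term of edgeR's quasi-likelihood test, at an adjusted p under 0.05 for the members of the 10 and past the limits for the other pathway genes. Differences are on the log2 scale, sgEPCR minus control. Among the 10 genes they were 1.81 for NFKB2, 0.67 for RELA, 1.88 for RELB, 0.77 for NFKBIA, 2.03 for BCL3, 2.25 for TNFAIP3, 1.24 for BIRC2 and 3.92 for BIRC3. Without the 2 libraries with over 20% mitochondrial counts these were 1.93, 0.81, 2.02, 0.77, 2.30, 2.22, 1.14 and 3.97 in the same order.

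Among the other pathway genes, the ligands TNFSF14 and IL1B differed by 7.0 and 2.65 and the ligand TNFSF13B by -3.02. The signaling genes TRAF1 and RIPK1 differed by 2.38 and 1.13, and the regulators NFKBIZ, ZFP36 and CYLD by 1.91, 2.19 and 1.3. The target genes CSF1 and CCL3 differed by 4.70 and 3.95. The control DMSO libraries were collected at 72 h and the sgEPCR DMSO libraries at 24 h, so genotype and time of the DMSO reference cannot be told apart in any of these. Several of the differences also include gaps between the DMSO groups, given above for RIPK1, TRAF1, IL1B, TNFSF14 and TNFSF13B.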

How the results depend on the processing

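Over 2905 alternative values for the 10 genes, 2736 kept their direction and side of an adjusted p of 0.05, 93 lost that threshold, 42 gained it and 34 changed sign. Of those 34, 2 had passed the threshold (NFKB1 at 6 h), and 1 passed it under the alternative (BIRC2 at 6 h with total count scaling). Unless a value or the construction of the alternative shows it, the cause was not tested. Values below follow the order of the report.

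Counts of the 10 past the limits were, with an adjusted p under 0.05 and no minimum fold, 8, 8, 8 and 9 for the 4 times in order, 7 from 6 to 24 h, 9 from 24 to 48 h, 7 from 48 to 72 h, 8 in sgEPCR UM171 against sgEPCR DMSO, 4 for 24 h in the fit of 12 libraries, 1 in sgEPCR DMSO against DMSO, 9 in sgEPCR UM171 against UM171 24 h and 8 for the difference between responses. With an adjusted p under 0.01 and 1.5-fold they were 2 at 24 h, 4 from 6 to 24 h, 2 for 24 h in the fit of 12 libraries, 1, 7 and 7 in the last 3. By limma on log2(TPM + 1) they were 0 at 6 h, 3 at 72 h, 0 from 6 to 24 h, 1 from 24 to 48 h, 1 in sgEPCR UM171 against sgEPCR DMSO, 1 against UM171 24 h and 0 for the difference. With all 21 libraries in 1 fit they were 2 at 48 h and 0 from 6 to 24 h. With total count scaling they were 2, 1 and 1 in sgEPCR UM171 against sgEPCR DMSO, against UM171 24 h and for the difference, and with only the groups of the contrast 0 and 0 in the first 2.

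At an adjusted p under 0.05 limma gave 3 at 6 h, 4 at 24 h, 5 from 24 to 48 h, 4 from 48 to 72 h, 1 for 24 h in the fit of 12 libraries, 4 in sgEPCR UM171 against UM171 24 h and 5 for the difference. The fit of 21 libraries gave 5 at 24 h, 4 from 48 to 72 h and 3 in sgEPCR DMSO against DMSO. For 24 h in the fit of 12 libraries, total count scaling gave 2, only the groups of the contrast 7 and leaving out the 2 libraries over 20% mitochondrial counts 8. In sgEPCR DMSO against DMSO, these were 3 with total count scaling and 6 without the 2 libraries, and DESeq2, upper quartile scaling and requiring 10 counts in each library gave 2 each.

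Replicate numbers were not taken to pair the libraries, as no label ties them to a shared source and deviations of same-numbered libraries were not all correlated above 0.1. They correlated at -0.89, -0.89 and 0.83 between the sgEPCR groups, which hold the 2 libraries with many mitochondrial counts, and all 3 above 0.1 in 1 pair of groups, UM171 6 h with sgEPCR DMSO (0.27, 0.16 and 0.15). A replicate block gave 1 past the limits in sgEPCR UM171 against UM171 24 h and 1 for the difference, and a replicate block within genotype 0 in sgEPCR UM171 against sgEPCR DMSO and 0 for the difference. On leaving out 1 library, counts past the limits ran from 2 to 5 in sgEPCR UM171 against sgEPCR DMSO, and from 1 to 5 both against UM171 24 h and for the difference, and counts at an adjusted p under 0.05 from 1 to 3 in sgEPCR DMSO against DMSO. The values of genes whose sign changed on leaving out a library ran from -0.062 to 4.4e-04 for BIRC2 at 6 h, -0.10 to 0.15 for REL at 48 h, -0.49 to 0.80 for REL and -0.041 to 0.15 for RELA in sgEPCR UM171 against sgEPCR DMSO, -0.092 to 0.12 for NFKB2 and -0.026 to 0.99 for REL in sgEPCR DMSO against DMSO, and -0.38 to 0.90 for REL in the difference.

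Signs changed mostly near 0. At 6 h NFKB1 was 0.0066 by limma and 0.026 with total count scaling, and BIRC2 was 0.17 by limma, 0.086 with upper quartile and 0.17 with total count scaling, 0.039 on requiring 10 counts in each library, and 0.0041 with only the groups of the contrast. REL was -0.092 by limma at 48 h, and by limma -0.021 from 24 to 48 h and 0.020 from 48 to 72 h. From 6 to 24 h total count scaling gave NFKB2 -0.032 and BCL3 -0.025. In sgEPCR DMSO against DMSO, limma gave REL -0.20, RELB -0.11 and NFKBIA -0.23, total count scaling NFKBIA -0.17, and without the 2 libraries REL was -0.035 and NFKB2 0.11. For the difference between responses NFKB1 was 0.14 by limma, 0.058 with upper quartile and 0.059 with total count scaling. As counts per kilobase of 1 effective length, the shares moved beyond 1 SD to 6.45% for NFKB2 in DMSO and 3.73%, 5.23% and 4.87% for REL at 48 h, in sgEPCR DMSO and in sgEPCR UM171. Total count scaling put the median of all tested genes at 0.20 at 6 h and -0.25 in sgEPCR DMSO against DMSO, and limma put the latter at -0.32. Over all tested genes, 1236 were past the limits for the difference between responses, 617 to 1722 on leaving out a library, and from 0 with a replicate block within genotype to 7158 with an adjusted p under 0.05 and no minimum fold. BIRC3 in DMSO and sgEPCR DMSO and RELB in DMSO rest on few counts, which limits their folds.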
